A study of Mus musculus with 4 samples.

Results

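By a rule on gene names, 43 of the 52636 genes of the deposited count table were taken as members of the TNF and TNF receptor superfamilies. Members were chosen by name. Taken were every gene whose symbol starts with Tnfsf or Tnfrsf, and Tnf, Lta, Ltb, Cd40lg, Cd40, Cd27, Cd70, Fas, Fasl and Ltbr. Family genes with other symbols were not taken, and the choice was made with earlier results of these data known. Of the 43 members, 19 are ligand genes and 24 are receptor genes. The ligand genes include Tnfsf13os, an RNA antisense to Tnfsf13, and Tnfsfm13, a transcript that joins Tnfsf12 and Tnfsf13. The filter on low counts was passed by 37 members, 15 ligand genes and 22 receptor genes.

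The libraries were made from naive CD4 T cells of C57BL/6 mouse spleen after 3 days of culture with the cytokines IL-6 and IL-21 (each 10 ng/ml) and with antibodies against IFN-γ, IL-4 and TGF-β, which favours T follicular helper (Tfh) cells, the helpers of germinal centre B cells. Of the 4 libraries, 2 were labelled E4BP4-cKO, a conditional knockout of the transcription factor E4BP4, which Nfil3 encodes, and 2 were labelled wild-type. The comparison asked how Tfh-polarised cells differ in RNA with and without E4BP4. The Cre driver and the deleted part of Nfil3 are named in no source used here, and the labels do not say whether replicates are separate animals or cultures.

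TNF family ligands are trimers on the cell surface, and some are cut off and act in solution. They gather their receptors into clusters, and these recruit TRAF adaptors, which lead to NF-κB and MAP kinases, or, through a death domain, FADD and caspase-8, which lead to cell death. On helper T cells, CD40 ligand is a main signal to B cells, while OX40 (Tnfrsf4), 4-1BB (Tnfrsf9) and GITR (Tnfrsf18) act as costimulatory receptors of activated cells.

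Nfil3 went against the labels. Its counts were 4649 and 3965 in the E4BP4-cKO libraries, against 290 and 377 in the wild-type libraries. The table does not say which reads fall in the deleted part, and an exchange of the group labels was not tested. Every difference below is therefore one between libraries as labelled, and none is to be taken as the effect of E4BP4 loss. Total counts ran from 19057077 to 26579592. Pan-T-cell markers summed to 2783 and 3459 CPM (the count scaled by TMM-adjusted library size) in the E4BP4-cKO libraries and 2874 and 2909.9 CPM in the wild-type libraries, with 0 of 8 called by edgeR, 2 at an unadjusted p under 0.05 (5538 of all 15503 genes tested passed this), 1 by DESeq2 (Cd247, higher) and 0 by limma-voom. The Tfh markers summed to 572 and 608 CPM in the E4BP4-cKO libraries and 567 and 576 CPM in the wild-type libraries. Only Icos was called, higher, with 301 and 416 CPM against 217 and 203 CPM in the wild-type libraries. Of the 6 Tfh markers, 4 had a negative log2 fold change, and the median was -0.30. Among them were Il21 (-0.72), Pdcd1 (-0.69) and Bcl6 (-0.47), none called, so the similar sums hide lower values. The marker sums of myeloid cells, of mast cells and basophils and of B cells moved with the labels. Of 8 myeloid markers 6 rose, with a sum of 290.0 and 204 CPM in the E4BP4-cKO libraries against 50.2 and 17.6 CPM in the wild-type libraries. Of 8 mast cell and basophil markers 3 of the 7 tested rose, with a sum of 1603 and 1238 CPM against 443 and 93.9 CPM in the wild-type libraries. Of 8 B cell markers 2 fell, Ighm and Igkc, and 6 were not called. The 8 had a sum of 85.3 and 43.6 CPM against 382 and 379 CPM in the wild-type libraries. Most of it was Ighm, 43.4 and 23.2 CPM against 241 and 243 CPM, and Igkc, 19.2 and 8.23 CPM against 99.5 and 106 CPM. Of the 8, 7 had a negative log2 fold change and 1, Cd22, a positive one (0.43). Of 6 dendritic cell markers 2 of the 4 tested rose and 2 had a negative log2 fold change, not called. Their sums were 17.5 and 13.1 CPM against 8.49 and 12.1 CPM in the wild-type libraries. The CD8 T and NK cell markers summed to 64.7 and 72.1 CPM against 42.6 and 66.5 CPM in the wild-type libraries, which overlap. Of the 4 tested, 1 rose, Klrd1, with 40.2 and 39.9 CPM against 7.398 and 17.6 CPM in the wild-type libraries. Eomes was lower and not called, with 11.5 and 24.6 CPM against 27.9 and 41.3 CPM in the wild-type libraries. Ncr1 had no count in any library. In bulk RNA, fewer cells of a type and less RNA per cell cannot be told apart.

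The difference passed the test in 12 members, and these split evenly by direction. Higher in the E4BP4-cKO libraries were Fasl, Tnfsf12, Tnfrsf9, Tnfrsf11b, Tnfrsf1b and Tnfrsf26. Lower were Tnfrsf13c, Ltb, Tnfrsf13b, Cd40lg, Fas and Tnfsf9. A gene is said to have risen or fallen, or to be called, at an adjusted p under 0.05 (edgeR's quasi-likelihood test, Benjamini-Hochberg adjustment over all 15503 genes tested). The 6 members called higher were 16.2% of the 37 tested, against 7.68% called higher among all genes tested. The 6 called lower were also 16.2%, against 6.53% called lower among all genes. As the members were chosen with earlier results of these data known, these shares are a description only. Between the labelled groups the median log2 fold change of the members was 0.25, against 0.02 over all genes tested, and the median of its absolute value was 0.67, against 0.37. The E4BP4-cKO libraries were both above the wild-type libraries for 17 members, and both below for 11. Among all genes tested, 34.6% were above without overlap and 33.6% below in the same way. These counts changed with the libraries kept. With E4BP4-cKO replicate 2 left out, edgeR called 1 member higher and 0 lower. The counts were 3 and 3 with wild-type replicate 1 left out, and 6 and 3 with wild-type replicate 2 left out. At an unadjusted p under 0.05, the fit that omits E4BP4-cKO replicate 2 held 14 higher and 11 lower members, or 37.8% and 29.7%, against 13.9% and 11.2% of all genes. Scaling to total counts in place of TMM factors gave 5 higher and 8 lower members, and moved the split over all genes to 1034 higher and 1635 lower, against 1191 and 1013.

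**Figure D1:**
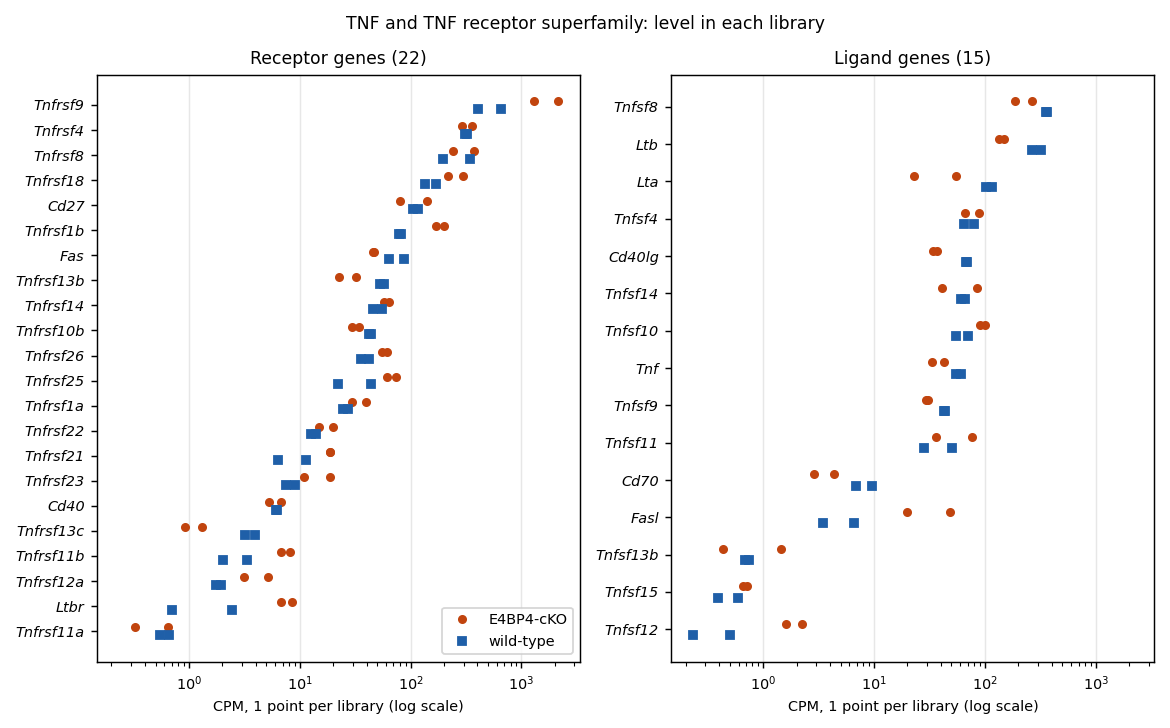
Level of each of the 37 tested members in each of the 4 libraries, in CPM on a log axis, with receptor genes on the left and ligand genes on the right, each ordered by level. Circles are the libraries labelled E4BP4-cKO and squares those labelled wild-type, and Tnfrsf9 reaches 2146 CPM in an E4BP4-cKO library.

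Upstream sequences were available for 32 of the 43 members, in 36 windows of RefSeq's promoter table on GRCm38.p6, and the 250 bases before the annotated start were searched. Printed here are 4 of them, chosen because their genes are called and because Tnfrsf9 and Ltb are the called receptor and ligand with the highest TPM, a level per transcript length, and Fasl and Fas are partners that moved in opposite directions. Capitals mark a match to the AP-1 motif TGANTCA in Tnfrsf9 and Fas and to GGGANTTTC, part of the classical NF-κB site, on the other strand of Ltb, and the Fasl window holds no match. The windows are chr4:150927749-150927998 on the plus strand for Tnfrsf9, which has another annotated start with no match, chr1:161788496-161788745 on the minus strand for Fasl, chr17:35194257-35194506 on the plus strand for Ltb and chr19:34290409-34290658 on the plus strand for Fas, each 5′ to 3′ and ending at the base before the start.
Tnfrsf9: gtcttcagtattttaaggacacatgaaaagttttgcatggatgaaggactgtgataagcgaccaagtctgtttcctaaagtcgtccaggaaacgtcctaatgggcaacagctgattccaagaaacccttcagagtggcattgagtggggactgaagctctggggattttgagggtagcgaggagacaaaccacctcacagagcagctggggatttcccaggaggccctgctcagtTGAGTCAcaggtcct
Fasl: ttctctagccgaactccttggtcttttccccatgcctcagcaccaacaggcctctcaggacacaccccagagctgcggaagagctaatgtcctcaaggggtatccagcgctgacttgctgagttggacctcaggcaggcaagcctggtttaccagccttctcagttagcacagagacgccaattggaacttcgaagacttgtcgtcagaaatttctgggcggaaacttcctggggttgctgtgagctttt
Ltb: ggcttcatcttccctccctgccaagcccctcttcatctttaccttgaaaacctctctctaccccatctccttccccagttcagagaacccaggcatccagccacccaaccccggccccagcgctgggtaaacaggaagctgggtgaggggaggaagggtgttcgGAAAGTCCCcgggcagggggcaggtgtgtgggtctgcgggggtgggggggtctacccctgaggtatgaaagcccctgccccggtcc
Fas: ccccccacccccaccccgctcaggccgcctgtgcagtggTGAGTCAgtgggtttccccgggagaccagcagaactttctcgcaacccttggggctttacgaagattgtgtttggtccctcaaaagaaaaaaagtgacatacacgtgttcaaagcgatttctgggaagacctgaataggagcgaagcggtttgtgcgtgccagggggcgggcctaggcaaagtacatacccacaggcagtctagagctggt
The match begins 15 bases before the start in Tnfrsf9, 86 bases before it in Ltb and 211 bases before it in Fas. These are RefSeq starts. By the deposited coordinates the Tnfrsf9 window lies inside the gene, and the Ltb window partly so, as Ltb begins at 35194439. The first 20 transcribed bases were found in a GENCODE transcript of the gene for 27 of the 36 windows, but not for that of Fas. The D-box motif TTANGTAA, which E4BP4 binds, was in 0 of the 36 member windows and in 2.06% of all 32851 windows of that length, both strands searched. The AP-1 motif was in 6 member windows, those of Fas, Tnfrsf8, Tnfrsf9, Tnfsf13, Tnfsf13b and Tnfsf14, and in 6.75% of all windows. The NF-κB motif, searched only as GGGANTTTC, was in 1 member window, that of Ltb, and in 0.941% of all windows. Other forms of the NF-κB site were not searched. The Tnfrsf9 window holds ggggatttcc, which these letters do not match and which is left unmarked. A match is a description of these letters, and no match says nothing about binding elsewhere.

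The 4 ligand genes of the TNF and lymphotoxin group had a median log2 fold change of -0.83, with 1 called. Ltb, which encodes the membrane anchor of the lymphotoxin α1β2 trimer (ENSMUSG00000024399, chromosome 17, 35194439 to 35196320), fell. It had 148 and 135 CPM in the E4BP4-cKO libraries and 265 and 322 CPM in the wild-type libraries, which differ by -1.05 on the log2 scale (SE 0.14, adjusted p = 0.0241). All pairs of libraries differed the same way, by 1.79-fold to 2.38-fold, and the call ended only without E4BP4-cKO replicate 2. Lta, the lymphotoxin α subunit, had 54.4 and 22.95 CPM in the E4BP4-cKO libraries against 103 and 117 CPM in the wild-type libraries. That difference was not called (log2 fold change -1.50, SE 0.39, adjusted p = 0.0582), with the E4BP4-cKO libraries apart from each other by more than the wild-type ones. Tnf had 42.9 and 33.6 CPM in the E4BP4-cKO libraries and 54.98 and 61.4 CPM in the wild-type libraries (log2 fold change -0.60, SE 0.15, adjusted p = 0.0571), also not called. These 3 genes lie together within 10.9 kb. For each the E4BP4-cKO libraries were both below the wild-type libraries, as for 33.6% of all genes tested. Tnfsf14 (LIGHT), which binds the lymphotoxin β receptor and HVEM, had overlapping levels, 85.8 and 41.3 CPM in the E4BP4-cKO libraries and 61.4 and 66.3 CPM in the wild-type libraries.

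Of the 4 receptors of this group, 1 was called, Tnfrsf1b. It encodes TNFR2, the TNF receptor without a death domain (ENSMUSG00000028599, chromosome 4, 145213463 to 145246870). It had 170.2 and 202 CPM in the E4BP4-cKO libraries, against 81.7 and 78.4 CPM in the wild-type libraries. It rose by 1.22 on the log2 scale (SE 0.13, adjusted p = 0.0191), and it was the member called under all 11 alternatives, with adjusted p-values up to 0.0322. Tnfrsf1a, the death-domain receptor TNFR1, had 29.7 and 39.7 CPM against 24.7 and 27.2 CPM in the wild-type libraries and was not called (adjusted p = 0.165). Ltbr, the lymphotoxin β receptor, known from stromal and myeloid cells and largely absent from T cells, had 8.56 and 6.76 CPM against 2.47 and 0.706 CPM in the wild-type libraries. Its log2 fold change was 2.29 (SE 0.58) and its adjusted p 0.0562. The myeloid marker sums stood in the same order over the 4 libraries as Ltbr, 290.0, 204, 50.2 and 17.6 CPM. So did the mast cell and basophil marker sums, 1603, 1238, 443 and 93.9 CPM. The part of either in the Ltbr values was not tested. Tnfrsf14 (HVEM) had 57.4 and 63.2 CPM in the E4BP4-cKO libraries and 46.2 and 55.2 CPM in the wild-type libraries (adjusted p = 0.232).

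**Figure D2:**
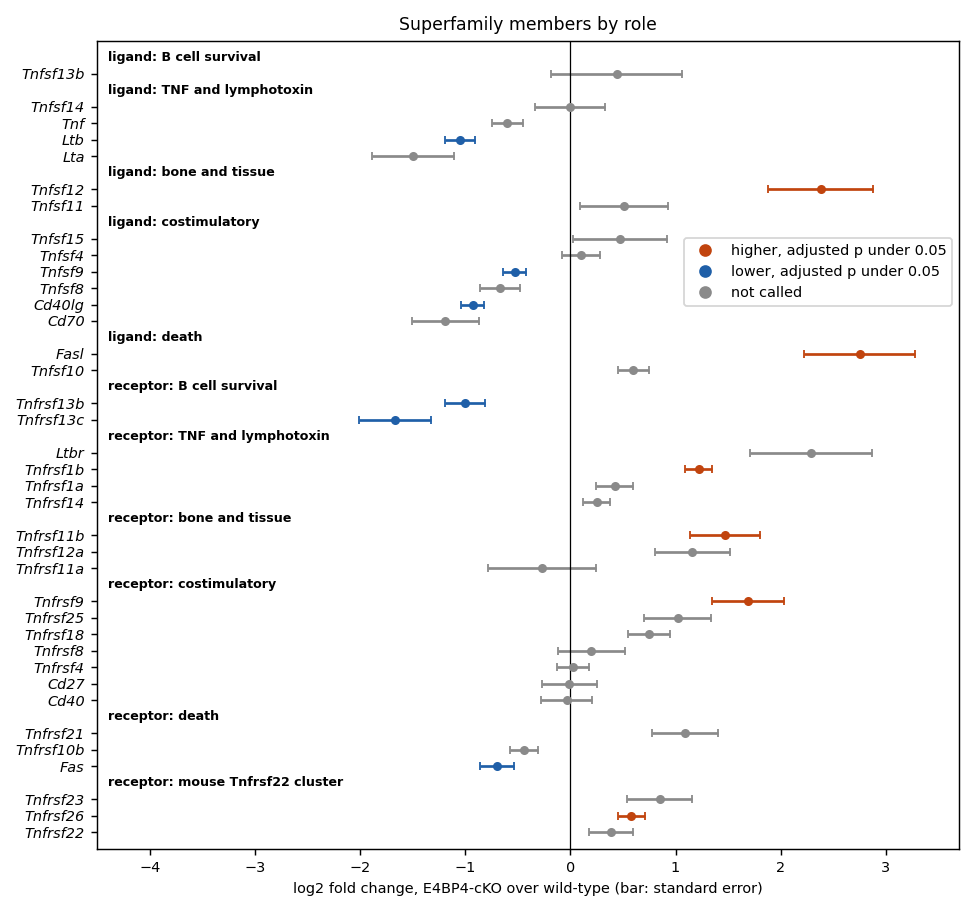
Log2 fold change, E4BP4-cKO over wild-type, of the 37 tested members grouped by role, with bars for the standard error and colours for the call. In the TNF and lymphotoxin groups, the called genes are Ltb at -1.05 among the ligands and Tnfrsf1b at 1.22 among the receptors.

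Among costimulatory ligands the called ones fell. Cd40lg, the CD40 ligand (ENSMUSG00000031132, chromosome X, 57212143 to 57224042), had 37.3 and 34.1 CPM in the E4BP4-cKO libraries and 67.8 and 68.4 CPM in the wild-type libraries. Its log2 fold change was -0.93 (SE 0.11, adjusted p = 0.0213), every pair of libraries differed by at least 1.82-fold, and the call ended only without E4BP4-cKO replicate 2. Cd40lg is X-linked, and Xist, the RNA of the inactive X, had 1 and 21517 counts in the E4BP4-cKO libraries and 28571 and 17 counts in the wild-type libraries. Any bearing of this on the Cd40lg values was not tested. Tnfsf9, the 4-1BB ligand (ENSMUSG00000035678, chromosome 17, 57105385 to 57107757), had 29.5 and 30.4 CPM, against 42.7 and 43.9 CPM in the wild-type libraries. It fell by 0.53 on the log2 scale (SE 0.11, adjusted p = 0.0414), and it lost its call with any library left out. An antisense gene covers 14.9% of its exon bases, and without strand information those reads cannot be told apart. Tnfsf8, the CD30 ligand, had 264 and 187 CPM in the E4BP4-cKO libraries and 357 and 362 CPM in the wild-type libraries. It was not called (log2 fold change -0.67, adjusted p = 0.0671), nor was Cd70, the CD27 ligand, with 4.34 and 2.89 CPM against 6.896 and 9.68 CPM in the wild-type libraries (adjusted p = 0.0634). Tnfsf4, the OX40 ligand, had 89.02 and 66.8 CPM in the E4BP4-cKO libraries and 65.3 and 79.8 CPM in the wild-type libraries, which overlap. Tnfsf15 (TL1A) stayed under 1 CPM throughout, at 0.653 and 0.709 CPM against 0.594 and 0.392 CPM in the wild-type libraries.

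Of the costimulatory receptors, Tnfrsf9 was the called one. Tnfrsf9, which encodes 4-1BB, an activation-induced receptor (ENSMUSG00000028965, chromosome 4, 150914562 to 150946102), had 1290.5 and 2146 CPM in the E4BP4-cKO libraries, against 407 and 656 CPM in the wild-type libraries. It rose by 1.69 on the log2 scale (SE 0.34, adjusted p = 0.0372), with differences between single libraries of 1.97-fold to 5.27-fold. The call ended when E4BP4-cKO replicate 2 was omitted (log2 fold change 1.29) and likewise with wild-type replicate 1 omitted (1.38), and adjusted p-values reached 0.101 over the alternatives. The mast cell and basophil marker sum was also higher in the E4BP4-cKO libraries, 1603 and 1238 CPM against 443 and 93.9 CPM in the wild-type libraries, and within each group the library with more Tnfrsf9 had the smaller sum. Its part in the Tnfrsf9 values was not tested. The members together summed to 3775 and 4529 CPM in the E4BP4-cKO libraries and 2705 and 3330.0 CPM in the wild-type libraries. Of that sum Tnfrsf9 held 34.2% and 47.4%, against 15.1% and 19.7% in the wild-type libraries. Without Tnfrsf9 the sums overlapped, at 2485 and 2383 CPM in the E4BP4-cKO libraries and 2298 and 2674 CPM in the wild-type libraries.

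The other costimulatory receptors were not called. Tnfrsf4 (OX40) had 289.7 and 359 CPM in the E4BP4-cKO libraries and 312 and 325 CPM in the wild-type libraries, a log2 fold change of 0.03 (SE 0.15) that turned negative when scaled to total counts. Tnfrsf18 (GITR), its neighbour on chromosome 4, had 219 and 296 CPM against 136 and 170.3 CPM in the wild-type libraries (log2 fold change 0.75, SE 0.20, adjusted p = 0.0587), and an antisense gene covers 27.2% of its exon bases. Tnfrsf25 (DR3), the TL1A receptor, had 61.2 and 73.2 CPM, against 22.3 and 43.7 CPM in the wild-type libraries (adjusted p = 0.0844). For Tnfrsf18 and Tnfrsf25 the E4BP4-cKO libraries were both above the wild-type libraries, as for 34.6% of all genes tested. The wild-type libraries stood far apart from each other for Tnfrsf25. Tnfrsf8 (CD30) had 371 and 243 CPM in the E4BP4-cKO libraries and 195 and 339.8 CPM in the wild-type libraries. Cd27, the receptor of CD70, had 80.4 and 140.4 CPM against 117 and 105 CPM in the wild-type libraries. Cd40, the B cell and antigen-presenting-cell partner of CD40 ligand, had 6.72 and 5.23 CPM against 6.26 and 6.04 CPM in the wild-type libraries. In each of these 3 genes the libraries of the groups overlapped.

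Levels can be compared between genes only per length, in TPM. In the E4BP4-cKO libraries Tnfrsf9 stood first, at 1359 and 2202 TPM, then Tnfrsf4 at 608 and 733 TPM and Tnfrsf18 at 411 and 543 TPM. In the wild-type libraries Tnfrsf4, at 709 and 761 TPM, stood above Ltb, at 543 and 679 TPM, and Tnfrsf9, at 464 and 769.7 TPM, overlapped both. Ltb was at 279 and 249 TPM in the E4BP4-cKO libraries, below Tnfrsf18 there, whereas Tnfrsf18 was at 276 and 357 TPM in the wild-type libraries, below Ltb. At the lower end, Tnfsf15, Tnfsf13b and Tnfrsf11a stayed under 1 TPM in every library.

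**Figure D3:**
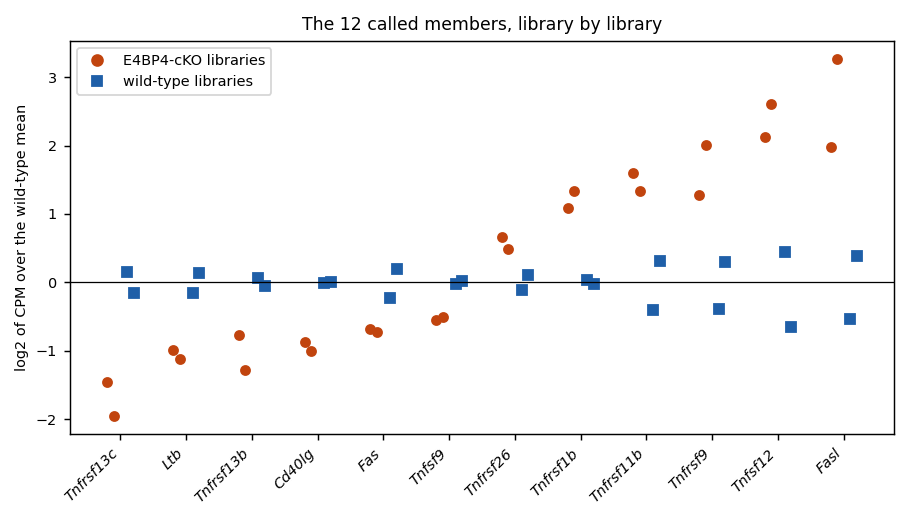
The 12 called members in each library, as log2 of CPM over the mean of the wild-type libraries, ordered by fold change. Circles (E4BP4-cKO) and squares (wild-type) do not overlap for any of the 12, which held for all 2204 genes called. The circles of Fasl, at 19.8 and 48.6 CPM, lie far apart from each other.

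Of the death ligands, Fasl rose. Fasl encodes Fas ligand (ENSMUSG00000000817, chromosome 1, 161780689 to 161788495), which triggers apoptosis in Fas-bearing cells and is made by activated T and NK cells. It had 19.8 and 48.6 CPM in the E4BP4-cKO libraries, against 3.47 and 6.59 CPM in the wild-type libraries. Its log2 fold change of 2.75 (SE 0.53, adjusted p = 0.0355) is the highest of the tested members, and single libraries differed by 3.003-fold to 14.00-fold. The call ended with limma-voom, when E4BP4-cKO replicate 2 was omitted (log2 fold change 1.98) and when wild-type replicate 1 was (2.37), and adjusted p-values reached 0.0819. Of the 6 CD8 T and NK cell markers, Klrd1 also rose, with 40.2 and 39.9 CPM in the E4BP4-cKO libraries against 7.398 and 17.6 CPM in the wild-type libraries (log2 fold change 1.67, adjusted p = 0.0495). Cd8a, Cd8b1 and Eomes were not called, and Eomes went the other way, with a log2 fold change of -0.95. Ncr1 had no count and Klrb1c had at most 2 counts in any library. The part of such cells in the Fasl values was not tested. Tnfsf10 (TRAIL) had 89.7 and 101 CPM in the E4BP4-cKO libraries and 55.4 and 70.2 CPM in the wild-type libraries (log2 fold change 0.60, SE 0.15, adjusted p = 0.0528), not called.

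Among the death receptors, Fas fell and the others were not called. Fas, the receptor of Fas ligand (ENSMUSG00000024778, chromosome 19, 34290659 to 34327770), had 46.97 and 45.7 CPM in the E4BP4-cKO libraries and 64.2 and 86.4 CPM in the wild-type libraries. Its log2 fold change was -0.70 (SE 0.16, adjusted p = 0.0478), and 6 of the 11 alternatives ended the call, among them limma-voom, upper-quartile factors and each single library left out other than wild-type replicate 1. Tnfrsf10b, the mouse death receptor for TRAIL, had 33.9 and 29.8 CPM against 44.1 and 42.3 CPM in the wild-type libraries (log2 fold change -0.44, adjusted p = 0.0715). Tnfrsf21 (DR6) had 18.9 and 18.8 CPM, against 11.4 and 6.31 CPM in the wild-type libraries (log2 fold change 1.09, SE 0.31, adjusted p = 0.0677). None of the 3 overlapped between the labelled groups. Among all genes tested, 34.6% were above and 33.6% below without overlap.

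The mouse has a cluster of Tnfrsf26, Tnfrsf22 and Tnfrsf23 on chromosome 7, of which Tnfrsf22 and Tnfrsf23 are decoy receptors for TRAIL. Tnfrsf26 (ENSMUSG00000045362, 143607659 to 143628722) had 61.6 and 54.6 CPM in the E4BP4-cKO libraries and 35.9 and 41.99 CPM in the wild-type libraries. It rose by 0.58 on the log2 scale (SE 0.13, adjusted p = 0.0474), and it lost its call with any library left out and with total-count scaling. Tnfrsf22 had 20.05 and 14.9 CPM against 12.7 and 13.96 CPM in the wild-type libraries, and Tnfrsf23 had 18.8 and 10.8 CPM against 7.44 and 9.096 CPM. Neither was called (adjusted p = 0.233 for Tnfrsf22 and 0.12 for Tnfrsf23). For all 3 neighbours both E4BP4-cKO libraries were above both wild-type libraries, as for 34.6% of all genes tested.

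Genes of the bone and tissue group rose where they were called. Tnfrsf11b encodes osteoprotegerin, a secreted decoy that captures RANKL (ENSMUSG00000063727, chromosome 15, 54250619 to 54278484). It had 8.103 and 6.76 CPM in the E4BP4-cKO libraries, against 2.01 and 3.33 CPM in the wild-type libraries. The log2 fold change was 1.47 (SE 0.33, adjusted p = 0.0459), and the call ended with either E4BP4-cKO library omitted and with wild-type replicate 1 omitted. Tnfsf11, which encodes RANKL itself, had 76.5 and 36.04 CPM in the E4BP4-cKO libraries and 28.5 and 50.5 CPM in the wild-type libraries, which overlap. Tnfrsf11a, its signalling receptor RANK, had at most 17 counts in any library, 17 and 6 counts against 12 and 17 counts in the wild-type libraries.

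Tnfsf12 encodes TWEAK, a ligand made by monocytes and macrophages among others (ENSMUSG00000097328, chromosome 11, 69686250 to 69695849). It had 42 and 41 counts in the E4BP4-cKO libraries, or 1.61 and 2.24 CPM, against 11 and 6 counts in the wild-type libraries, or 0.502 and 0.235 CPM. It rose by 2.38 on the log2 scale (SE 0.50, adjusted p = 0.0401), at levels near the floor of the assay, and it lost its call with any library left out. Of its exon bases 48.3% also belong to Tnfsfm13, so the count is uncertain. The myeloid marker sum was 290.0 and 204 CPM in the E4BP4-cKO libraries, against 50.2 and 17.6 CPM in the wild-type libraries, and its part in the Tnfsf12 values was not tested. Tnfrsf12a, the TWEAK receptor Fn14, had 3.11 and 5.18 CPM in the E4BP4-cKO libraries and 1.74 and 1.96 CPM in the wild-type libraries (log2 fold change 1.16, SE 0.36, adjusted p = 0.086), not called.

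Both tested receptors of the B cell survival group fell. Tnfrsf13b encodes TACI, a receptor for BAFF and APRIL best known from B cells (ENSMUSG00000010142, chromosome 11, 61126755 to 61149372). It had 32.1 and 22.5 CPM in the E4BP4-cKO libraries, against 56.9 and 52.5 CPM in the wild-type libraries (log2 fold change -1.0, SE 0.19, adjusted p = 0.0355). Tnfrsf13c, the BAFF receptor (ENSMUSG00000068105, chromosome 15, 82221744 to 82224339), had 1.31 and 0.927 CPM against 3.97 and 3.21 CPM in the wild-type libraries (log2 fold change -1.67, SE 0.34, adjusted p = 0.0392). The B cell marker sum, most of it Ighm and Igkc, was 85.3 and 43.6 CPM in the E4BP4-cKO libraries, against 382 and 379 CPM in the wild-type libraries. Its part in both receptors was not tested. The Tnfrsf13c call ended with any library left out, and the Tnfrsf13b call ended when E4BP4-cKO replicate 2 or else wild-type replicate 1 was omitted. Tnfsf13b, which encodes the ligand BAFF, had 38 and 8 counts in the E4BP4-cKO libraries and 15 and 19 counts in the wild-type libraries.

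The 6 members left out by the filter had few counts. Tnfsf13, which encodes APRIL, had 7 and 3 counts in the E4BP4-cKO libraries and 2 and 2 counts in the wild-type libraries, and its antisense RNA Tnfsf13os had 4 and 4 against 3 and 0 counts. Tnfsfm13 had 6 and 4 counts against 0 and 1 counts in the wild-type libraries. Tnfrsf19 (TROY) had 4 and 0 counts against 1 and 8 counts in the wild-type libraries. Tnfsf18, the GITR ligand, had 4 counts in E4BP4-cKO replicate 1 and none elsewhere. Tnfrsf17 (BCMA), the plasma cell receptor for APRIL and BAFF, had no count in any library. A count of 0 allows up to 3 counts, which is 0.115 to 0.164 CPM by library, for counting error only.

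Of 24 ligand and receptor pairs named from textbook knowledge, 20 had both genes tested, and both partners were called in 2. Those are Fasl with Fas and Tnfsf9 with Tnfrsf9, and in each the partners moved in opposite directions. These calls depended on the processing, since limma-voom called neither Fas nor Fasl, and Tnfsf9 lost its call with any library left out. Fasl rose by 2.75 on the log2 scale while Fas fell by 0.70, and Tnfrsf9 rose by 1.69 while its ligand Tnfsf9 fell by 0.53. For Cd40lg and Ltb, which fell, the receptors Cd40 and Ltbr were not called. For Tnfrsf1b and Tnfrsf11b, which rose, the ligands Tnf, Lta and Tnfsf11 were not called, and the same held for Tnfrsf12a beside Tnfsf12 and Tnfsf13b beside the fallen Tnfrsf13b and Tnfrsf13c.

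**Figure D4:**
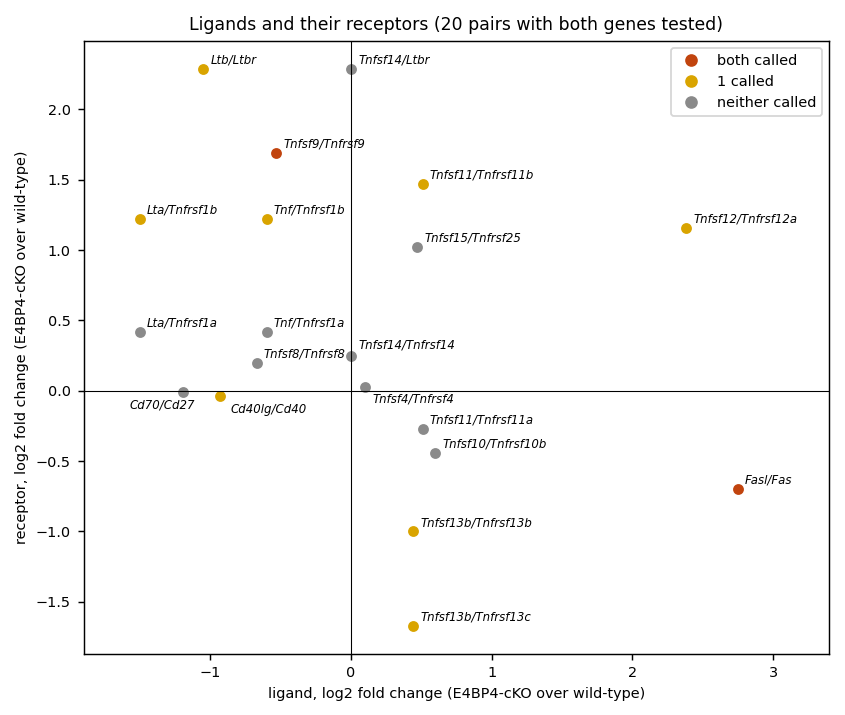
Log2 fold change (E4BP4-cKO over wild-type) of the receptor against that of its ligand for the 20 pairs with both genes tested. Colour shows how many partners were called, and the pairs with both called lie in opposite quadrants, Fasl/Fas at 2.75 and -0.70 and Tnfsf9/Tnfrsf9 at -0.53 and 1.69.

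Downstream of the receptors, 46 genes of TNF receptor signalling were listed by role, and all were tested. In the E4BP4-cKO libraries 6 rose, or 13.04%, and 4 fell, or 8.696%, with a median log2 fold change of -0.07; over all genes tested 7.68% rose and 6.53% fell. Traf1, an adaptor that binds TRAF2 at 4-1BB and TNFR2, had 673 and 844 CPM in the E4BP4-cKO libraries and 252 and 405 CPM in the wild-type libraries (log2 fold change 1.21, SE 0.26, adjusted p = 0.0421). Traip, which is named for binding TRAF proteins, fell by 0.79 on the log2 scale, and the other TRAF adaptors were not called. The neighbouring ubiquitin ligase genes Birc2 (cIAP1) and Birc3 (cIAP2) on chromosome 9 moved in opposite directions. Birc2 had 279 and 373 CPM against 97.5 and 153 CPM in the wild-type libraries (log2 fold change 1.38, SE 0.26, adjusted p = 0.0347). Birc3 had 69.1 and 49.8 CPM against 103 and 103 CPM in the wild-type libraries (log2 fold change -0.79, SE 0.17, adjusted p = 0.0422).

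Tnfaip3, which encodes the feedback inhibitor A20, had 293 and 275 CPM in the E4BP4-cKO libraries and 123 and 184 CPM in the wild-type libraries (log2 fold change 0.89, SE 0.20, adjusted p = 0.0474). Of the death pathway, Cflar, which encodes the caspase-8 inhibitor c-FLIP, rose by 0.75 and Mlkl, the executor of necroptosis, by 0.72 on the log2 scale. Cradd, a death-domain adaptor of caspase-2, fell by 1.19. Casp8 itself had 132 and 141 CPM in the E4BP4-cKO libraries and 127 and 138 CPM in the wild-type libraries, which overlap. Rhbdf2, which encodes iRhom2, the partner that carries the TNF-cleaving protease ADAM17 to the surface, rose by 0.53, while Adam17 was not called. Of the 10 kinases and kinase partners listed, edgeR called 0, with 2 at an unadjusted p under 0.05, while DESeq2 called 1, Map3k7, lower, and limma-voom 0. Of the 46, edgeR called 0 without E4BP4-cKO replicate 2, with 6 higher and 5 lower at an unadjusted p under 0.05, near the 13.9% and 11.2% of all genes. It also called 0 without wild-type replicate 1, with 7 higher and 4 lower against 11.9% and 8.9% of all genes, and 2 in each direction without E4BP4-cKO replicate 1. With wild-type replicate 2 omitted it called 5 higher and 1 lower.

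**Figure D5:**
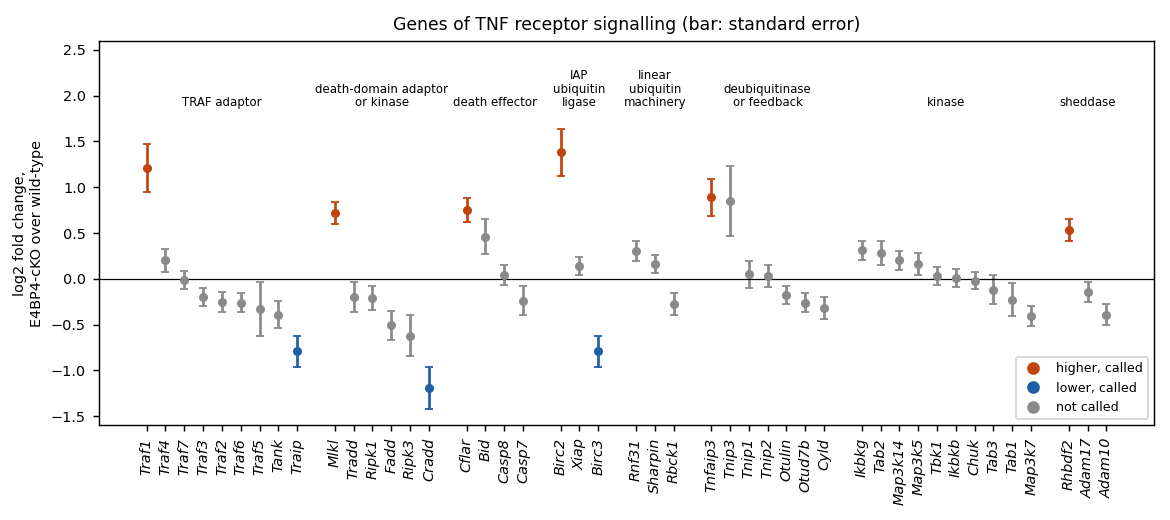
Log2 fold change, E4BP4-cKO over wild-type, of genes of TNF receptor signalling by role, with bars for the standard error. The called genes are coloured, from Birc2 at 1.38 down to Cradd at -1.19. The kinases, none called, lie between -0.41 and 0.31.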

How the data were processed

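The data are RNA-seq of 4 libraries of cultured mouse CD4 T cells, grouped by the genotype in the labels. The authors deposited raw counts per gene, which are whole numbers with no normalisation. The submitters' processing notes name CASAVA, HISAT2, featureCounts and the build mm10. No source used here gives the strand setting or annotation release, so reads of overlapping genes cannot be told apart. Coordinates are those of the deposited table, and exon overlaps come from GENCODE M21 (GRCm38, which is mm10).

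Counts were tested with edgeR 4.0.16 (glmQLFit, glmQLFTest, TMM factors, filterByExpr with a minimum count of 10) in R 4.3.3 over 15503 genes, two-sided, with Benjamini-Hochberg adjustment over all of them. Standard errors are the absolute log2 fold change over the square root of F. CPM uses TMM-scaled library sizes, and TPM the table's gene lengths. DESeq2 1.42.0, limma 3.58.1 (voom), total-count and upper-quartile scaling, other filters and libraries left out in turn were alternatives. The scripts were tested on simulated counts. A single count corresponded to 0.0384 to 0.0545 CPM, and floors are 3 counts per library, for counting error only.

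Total counts were 26579592 and 19057077 in the E4BP4-cKO libraries and 21543872 and 24447091 in the wild-type libraries. Counts of the libraries within a group differed by more than sampling noise (chi-square per degree of freedom 29.9 for E4BP4-cKO and 23.5 for wild-type), so all 4 were kept. The labels do not say that replicates came from separate animals or cultures, so p-values measure only the spread between these libraries. Xist was abundant in 1 library of each group and at most 17 counts in the other, so the libraries of a group were not repeats of the same RNA. Every tested member is named with its values, and from the signalling list every called gene except 1 that is counted but not reported here. Genes outside these, namely Icos, Il21, Pdcd1, Bcl6, Ighm, Igkc, Cd22, Klrd1, Ncr1, Klrb1c, Cd8a, Cd8b1, Eomes, Cd247, Xist, Casp8, Adam17 and Map3k7, were chosen after their values were seen. The members and lists were chosen with earlier results of these data known.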

Additional observations from a re-analysis of the deposited data

How the results depend on the processing

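The 12 called members kept the sign of their log2 fold change (E4BP4-cKO over wild-type) under all 11 alternatives, but only Tnfrsf1b was called under each of them. DESeq2 called 11 members higher and 10 lower, and edgeR with no filter on low counts called 14 higher and 11 lower, against 6 and 6; the cause was not tested. With 1 library left out, members called higher ran between 1 and 6 and members called lower between 0 and 6. Signalling genes ran between 0 and 5 higher and between 0 and 2 lower, and 8 were lower with no filter. Over all genes, DESeq2 called 1824 higher and 1667 lower, and no filter gave 2680 and 2237. Total-count scaling gave 1635 lower and shifted the median log2 fold change of all genes by -0.08. With 1 library left out, between 246 and 955 genes were called higher and between 74 and 806 lower, the fewest in each case without E4BP4-cKO replicate 2. In a group left with 1 library, that library is assumed to vary like the other group.

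Signs turned only in members that were not called. Leaving out 1 library gave log2 fold changes between -0.45 and 0.34 for Cd27, -0.23 and 0.15 for Cd40, -0.89 and 0.12 for Tnfrsf11a, -0.12 and 0.17 for Tnfrsf4, and -0.15 and 0.65 for Tnfrsf8. The same range was -0.14 to 0.98 for Tnfsf11, -0.71 to 1.04 for Tnfsf13b, -0.63 to 0.44 for Tnfsf14 and -0.12 to 0.31 for Tnfsf4. Upper-quartile factors gave 0.00892 for Cd27 and 0.0162 for Tnfsf14, and total-count scaling gave -0.0615 for Tnfrsf4.

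The replicate numbers are shared across groups, but deviations of same-numbered libraries correlated across genes at 0.0571, so the numbers were not taken to pair them. Same-numbered libraries also differed in Xist, with 1 and 28571 counts for replicate 1 and 21517 and 17 counts for replicate 2. With the replicate block, which joins these libraries, 7 members were called higher and 4 lower. Fas, Tnfsf9, Tnfrsf11b, Tnfsf12 and Tnfrsf26 lost their call there, and Ltbr, Tnfrsf18, Tnfrsf25 and Tnfsf10 gained one. Depth limits the members under 1 CPM, where a library holds few counts.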

Other observations

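The members varied more between libraries of a label than genes in general. The ratio of the higher to the lower CPM within a group had a median of 1.34 in the E4BP4-cKO libraries and 1.22 in the wild-type libraries over the 37 tested members. Over all genes tested with a count in both libraries of the group, it was 1.17 in the E4BP4-cKO libraries and 1.14 in the wild-type libraries. This ratio was over 1.5 for 12 members in the E4BP4-cKO libraries and 10 in the wild-type libraries, or 32.4% and 27.03%, against 19.4% and 16.5% of all genes. No test was made of this difference.

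Several genes that were high in the E4BP4-cKO libraries stood in the same order within both groups. Replicate 2 was above replicate 1 in the E4BP4-cKO and the wild-type libraries alike for Tnfrsf9, Fasl, Tnfrsf18, Tnfrsf25, Traf1 and Birc2. Ltbr stood in the opposite order, with replicate 1 above replicate 2, as did the summed myeloid, mast cell and B cell markers. These genes were picked after their values were seen, and the order within a group is a description of 4 libraries. The part of other cells in these values was not tested.

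Ligand and receptor genes contributed differently to the summed reads. Ligand genes summed to 946 and 744 CPM in the E4BP4-cKO libraries and 1114 and 1259.7 CPM in the wild-type libraries. Receptor genes summed to 2829 and 3785 CPM in the E4BP4-cKO libraries and 1591 and 2070.3 CPM in the wild-type libraries. Neither sum overlapped between the labels, and most of the receptor difference is Tnfrsf9, at 1290.5 and 2146 CPM against 407 and 656 CPM in the wild-type libraries.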
